A study of Caenorhabditis elegans with 2 samples.

Results

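The 39 genes described here are the protein-coding genes of the nematode Caenorhabditis elegans whose symbol starts with rab- (20 genes, all encoding Rab GTPases) or sec- (19 genes, named after secretion genes of yeast), out of 19973 nuclear protein-coding genes in the WBcel235 annotation. The rule reads only the symbol, but these families were picked for description with earlier results of these data known. Binding of the forkhead transcription factor FKH-8 at these genes was read from chromatin immunoprecipitation with sequencing (ChIP-seq) of whole first-stage (L1) larvae. The study has 1 group of 2 biological replicates: strain OP652, genotype unc-119(tm4063) III; wgIs652, of mixed sex, taken 6 hours after larvae hatched from bleached embryos had been synchronized by starvation. Both replicates carry an integrated transgene for FKH-8 with GFP and FLAG at its C terminus, and the labels do not say which promoter drives it or in which cells it is made. One label field names an antibody against GFP and another gives fkh-8 as the antibody. There is no untagged or untreated group, so values at the rab- and sec- genes are set beside those of all coding genes and no difference between conditions was tested. Whole larvae were used, so the cell type in which a gene was bound cannot be told apart.

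Rab proteins are small GTPases that mark the membranes of a compartment when bound to GTP and recruit the tethers and motors that move and dock vesicles there. The sec- genes encode machinery that brings new proteins into the endoplasmic reticulum (ER), packs them into COPII-coated vesicles, fuses those vesicles with the Golgi, and tethers later vesicles at the plasma membrane through the exocyst. Most of these genes act in every cell. Some Rabs have known roles in neurons or in the cilia of sensory neurons, which are the cells where FKH-8 is known to control ciliary genes. The 3 set apart here as neuronal or ciliary are RAB-3 on synaptic vesicles, and RAB-8 and RAB-28 in membrane traffic of the cilium. The name covers these genes only, and the other Rabs were not sorted by a role in neurons.

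The deposited peaks that passed a threshold on reproducibility between replicates (the irreproducible discovery rate, IDR) numbered 4963 on the ce11 build. The files give every peak a signal, on a scale that the sources used here leave undefined. It ran from 94.9 to 2102 with a median of 164.0, and peaks are ranked here from 1 (highest) to 4963. A gene was called bound when a reproducible summit, the highest point of a peak, lay from 1000 bp upstream to 200 bp downstream of its annotated 5′ end. The replicate lists held 19354 and 21452 peaks and the list from pooled replicates 17956, and all 3 include background regions. The reproducible peaks were exactly the 4963 pooled peaks of highest signal. The files give no read counts, so the depth is unknown. Labels call the replicates biological, and nothing in them says more about separate cultures.

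The bases within 100 bp of 7 summits are printed for the ciliary gene rab-28, the summit inside the neuronal gene rab-3, the Rab and sec- genes of highest signal (rab-7 and sec-61.G), and rab-14, sec-24.1 and sec-3, which hold GACGC. They are read from the RefSeq genome of the same assembly (ce11 coordinates, minus strand, 5′ to 3′ in the direction of the gene). Capitals mark GACGC, an alternative core of some forkhead factors, on either strand, and at rab-28 an X-box, the site of the RFX factors known to act on ciliary genes.
rab-28, chrIV:9244276-9244476: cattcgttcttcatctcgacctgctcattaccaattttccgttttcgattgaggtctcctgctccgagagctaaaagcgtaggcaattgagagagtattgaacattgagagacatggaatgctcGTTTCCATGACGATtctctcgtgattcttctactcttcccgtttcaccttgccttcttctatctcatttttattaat
rab-3, intron, chrII:5725214-5725414: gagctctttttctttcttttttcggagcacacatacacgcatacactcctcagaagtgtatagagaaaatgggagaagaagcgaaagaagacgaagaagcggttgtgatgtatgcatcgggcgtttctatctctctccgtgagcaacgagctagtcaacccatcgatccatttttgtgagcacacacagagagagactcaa
rab-7, chrII:11967625-11967825: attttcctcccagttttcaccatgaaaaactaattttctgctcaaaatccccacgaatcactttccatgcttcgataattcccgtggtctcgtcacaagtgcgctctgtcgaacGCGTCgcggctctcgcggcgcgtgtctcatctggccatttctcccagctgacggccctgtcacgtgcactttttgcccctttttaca
rab-14, chrX:15606950-15607150: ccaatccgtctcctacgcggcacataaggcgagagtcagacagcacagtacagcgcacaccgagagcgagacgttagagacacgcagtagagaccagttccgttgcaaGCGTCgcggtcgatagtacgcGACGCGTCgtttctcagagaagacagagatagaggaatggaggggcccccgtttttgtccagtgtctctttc
sec-61.G, chrV:10897272-10897472: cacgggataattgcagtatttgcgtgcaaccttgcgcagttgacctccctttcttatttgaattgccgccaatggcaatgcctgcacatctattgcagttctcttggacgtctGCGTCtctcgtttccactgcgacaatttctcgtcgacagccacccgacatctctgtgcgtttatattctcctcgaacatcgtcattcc
sec-24.1, chrIV:11566246-11566446: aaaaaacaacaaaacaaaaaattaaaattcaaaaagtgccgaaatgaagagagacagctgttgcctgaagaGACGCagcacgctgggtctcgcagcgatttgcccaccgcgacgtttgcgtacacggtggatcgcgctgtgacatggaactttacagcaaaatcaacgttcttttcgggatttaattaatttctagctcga
sec-3, chrX:3099913-3100113: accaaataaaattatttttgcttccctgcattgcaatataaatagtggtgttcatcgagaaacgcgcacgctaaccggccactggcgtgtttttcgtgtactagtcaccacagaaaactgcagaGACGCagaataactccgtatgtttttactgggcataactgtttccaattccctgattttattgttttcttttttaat

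At rab-28 the X-box lies 24 bp from the summit and reads ATCGTCATGGAAAC on the opposite strand to the one printed. At rab-14 the letters GACGC occur 3 times, and 2 of the matches overlap in opposite directions, which makes the run GACGCGTC. The summit sequence of rab-3 holds neither motif in capitals and has 4 matches to GAGAGA, a comparison motif left in lower case. These 4 matches overlap in pairs.

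Of the 39 genes, 18 were bound (46.2%, exact 95% interval 30.1 to 62.8%), beside 13.8% of all coding genes (2752 of 19973) and 17.1% of the 10896 coding genes with a gene-class symbol. By family, 9 of 20 rab- genes and 9 of 19 sec- genes were bound. When the 4963 best peaks of each replicate were used on their own, 18 members were bound in replicate 1 and 16 in replicate 2 (mean 17 ± 1.41, SD, n = 2), beside 2691 and 2748 coding genes. The interval covers the counting of genes only, and genes are not independent replicates. Each bound member had 1 reproducible summit in its window. The signal of these 18 summits ranged from 95.2 at rab-8 to 885.3 at sec-61.G with a median of 321.4, beside a median of 189.3 for the highest summit of each bound coding gene, and 12 of the 18 were above that value. Of the 18, 9 were among the 1000 highest peaks, beside 775 of the 2752 bound coding genes.

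Among the 3 neuronal or ciliary Rabs, 2 were bound, and both had low signals. At rab-28 (WBGene00004281, chrIV:9242074-9244012) the summit lay 364 bp upstream of the 5′ end between coding genes, in a peak at chrIV:9244168-9244583 with a signal of 121.7, rank 3683. The replicate signals there were 49.8 in replicate 1 (rank 4757) and 69.9 in replicate 2 (rank 3197). RAB-28 travels with the intraflagellar transport machinery and the BBSome in worm cilia. Its gene is the only bound member with a rab- symbol whose summit lay in no other coding gene's window. The same held for unc-108 and aex-6, Rab genes under other symbols. At rab-8 (WBGene00004272) the summit lay 513 bp upstream, in a peak at chrI:3684391-3684806, with a signal of 95.2, rank 4939 of 4963, so this gene is just inside the threshold. Its replicate signals were 49.9 (rank 4748) and 44.4 (rank 5579), and the summit is closer to the divergent gene D1037.1, 182 bp away.

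The synaptic vesicle gene rab-3 (WBGene00004267, chrII:5721767-5727853) was not bound by the window, yet it held one of the strongest summits of all members, elsewhere in the gene. In the window, the highest summit of the pooled list had a signal of 87.0, rank 5492, just outside the threshold, 11 bp upstream of the 5′ end. A reproducible peak at chrII:5725222-5725462 had its summit in an intron 2539 bp downstream of that 5′ end, with a signal of 538.9, rank 266. Replicate signals at the intron peak were 284.4 (rank 198) and 255.6 (rank 347). The annotation gives rab-3 a pair of coding transcript starts, and this summit lay 584 bp upstream of the second, that of C18A3.6b.1. With the 5′ ends of all coding transcripts in place of the gene's, all 3 neuronal or ciliary Rabs were bound.

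Set beside the general members, 2 of 3 neuronal or ciliary Rabs were bound and 16 of the other 36 genes (44.4%). The bound neuronal or ciliary genes had signals of 121.7 and 95.2, while the 16 general ones ranged from 95.8 to 885.3 with a median of 385.9. Neither neuronal or ciliary summit exceeded the median of 189.3 over bound coding genes, and 12 of the 16 general ones did. Of the general summits, 12 (not all the same ones) also lay in another coding gene's window, as did that of rab-8. The 4 that did not had signals of 216.9 (sec-3), 97.9 (sec-12), 116.1 (sec-16A.2) and 241.7 (sec-24.1), beside 121.7 at rab-28. Among rab- genes alone, 7 of the 17 others were bound (41.2%), at a median of 400.8. With 3 genes no test of the difference was made, and the intron summit of rab-3, at 538.9, is not among the window summits compared.

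Of 8 endosomal Rabs, 4 were bound, and all 4 ranked within the 1000 highest peaks. At rab-7, which acts on late endosomes and lysosomes, the peak at chrII:11967629-11967853 had a signal of 836.2 (rank 66), with 409.2 in replicate 1 and 426.9 in replicate 2. At rab-14, which acts in worm phagosome maturation, the peak at chrX:15606943-15607176 had a signal of 547.9 (rank 258), with 208.8 and 340.0 in the replicates, a ratio of 1.63 that was the widest gap among the 18 member peaks. The early endosome gene rab-5 (chrI:9307642-9307763) had a signal of 400.8 (rank 556) and the recycling endosome gene rab-11.1 (chrI:110667-110794) one of 370.9 (rank 664). Replicate signals were 202.2 and 205.1 at rab-5, and 200.1 and 173.7 at rab-11.1. At rab-7 and rab-11.1 the nearest 5′ end belonged to another gene. The rab-7 summit lay 794 bp upstream of rab-7 and 181 bp from the 5′ end of W03C9.5. That of rab-11.1 lay 666 bp upstream of rab-11.1 and 315 bp from the 5′ end of rpl-7. The recycling genes rab-10 and rab-35, and rab-21 and rab-11.2, were not bound.

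Of 5 Rabs of ER-to-Golgi transport and the Golgi, 1 was bound. This was rab-1, which acts between the ER and the Golgi, with a peak at chrV:1264343-1264758, a signal of 271.9 (rank 1162) and replicate signals of 123.7 and 154.0. The Golgi genes rab-6.1 and rab-6.2 were not bound, and neither were rab-30 and rab-33, placed at the Golgi from work in mammals. Of the remaining 4 Rabs, rab-18, known from mammals on lipid droplets and the ER, had a peak at chrIII:1080652-1080859 and a signal of 581.3 (rank 206, replicates 297.6 and 285.4), with the summit 15 bp downstream of its 5′ end in an exon outside coding sequence. At rab-39 the signal was 125.7 (rank 3542, replicates 58.4 and 65.6). Like rab-3, rab-19 and rab-37 had reproducible summits in an intron but not in the window. The summit at rab-19 had a signal of 121.2 and lay just past the 200 bp limit of the window, 194 bp upstream of a second transcript start. The one at rab-37 had a signal of 136.5 and lay 3220 bp downstream, and its nearest transcript start was 1230 bp further on.

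Of 4 sec- genes of protein entry into the ER, 3 were bound, and all 3 ranked within the 1000 highest peaks, as did 1 other sec- gene, sec-15 of the exocyst. All 3 genes of the Sec61 channel, through which nascent proteins cross the ER membrane, were bound. The gene for the gamma subunit, sec-61.G (chrV:10896658-10897143, peak at chrV:10897246-10897506), had the highest signal of all members at 885.3 (rank 54), with 464.8 in replicate 1 and 417.5 in replicate 2 and the summit 229 bp upstream. The beta subunit gene sec-61.B (peak at chrIV:2389056-2389266) had a signal of 561.5 (rank 233, replicates 279.2 and 284.6). The alpha subunit gene sec-61.A, which encodes the pore, had a peak at chrIV:14824927-14825342 with a signal of 452.4 (rank 421, replicates 231.5 and 226.5), with the summit 129 bp downstream of the 5′ end in an exon outside coding sequence. The signal peptidase gene sec-11 was not bound.

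Of 7 COPII genes, 4 were bound, and 3 of them had signals of 116.1 or less. The cargo adaptor gene sec-24.1 (peak at chrIV:11566138-11566553) had a signal of 241.7 (rank 1420, replicates 87.8 and 138.9). The ER exit site scaffold gene sec-16A.2 had 116.1 (rank 3938, replicates 59.4 and 49.5). At sec-12, whose yeast counterpart activates the GTPase Sar1, the signal was 97.9 (rank 4810), and at the inner coat gene sec-23 it was 95.8 (rank 4907). At both the peak ranked lower in replicate 2 (7013 at sec-12 and 6705 at sec-23) than in replicate 1 (4249 and 4089), and both were lost when the best peaks of replicate 2 were used alone. The COPII genes sec-16A.1, sec-24.2 and sec-31 (outer coat) were not bound.

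Of 6 sec- genes of the exocyst, the complex that tethers vesicles to the plasma membrane, 2 were bound. At sec-15 (peak at chrX:8835822-8836237) the signal was 474.5 (rank 367, replicates 232.3 and 240.9) and at sec-3 (chrX:3099805-3100220) it was 216.9 (rank 1674, replicates 106.1 and 106.7). The subunit genes sec-5, sec-6, sec-8 and sec-10 were not bound. Neither of the SNARE genes sec-20 and sec-22, which act in fusion between the ER and the Golgi, was bound. Of 4 pairs of members that share a symbol up to the last number, 3 had 1 bound gene (rab-11.1, sec-16A.2 and sec-24.1), none had both, and the rab-6 pair had none.

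**Figure D1:**
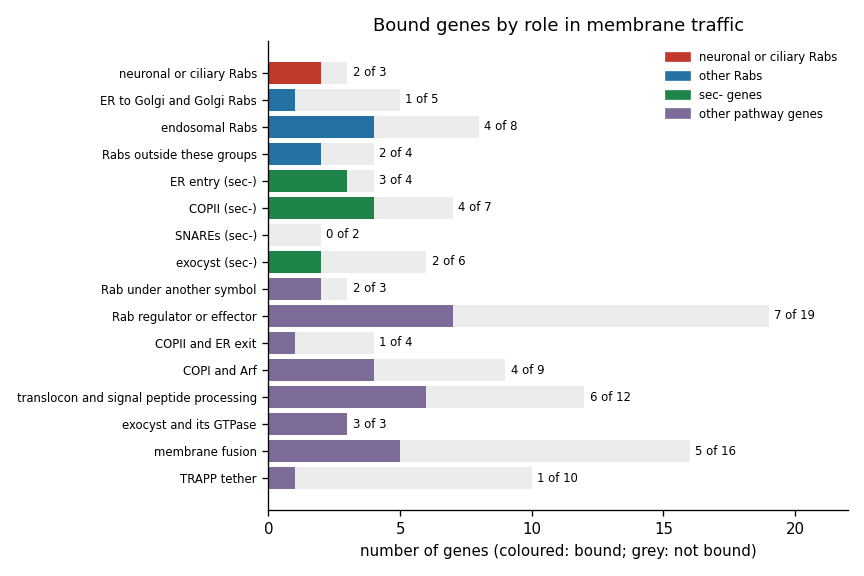
Number of bound genes (coloured) among all genes (colour plus grey) by role, for the rab- and sec- genes above and the other genes of the pathway below. ER entry stands at 3 of 4, endosomal Rabs at 4 of 8 and the TRAPP tether at 1 of 10, beside 13.8% of all coding genes.

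Of the 21 unbound members, 7 had a summit of the pooled list in their window. The highest were at sec-22 (88.5, rank 5374), rab-3 (87.0) and sec-5 (76.1, rank 6436), followed by rab-37 (63.7), rab-6.2 (49.7), sec-31 (46.5) and rab-11.2 (37.9). At sec-22 the replicates differed: the peak ranked 3547 in replicate 2 (signal 64.6) but 13647 in replicate 1. The other 14 had no pooled summit there at all. In all, 25 of 39 members had some summit of the pooled list in the window, beside 29.8% of coding genes. Among the 14, the nearest reproducible summit was closest at rab-19, just past the window, and farthest at sec-20, 28427 bp from the 5′ end.

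All 18 member peaks were present in the lists of both replicates. The ratio of signal in replicate 2 to replicate 1 ranged from 0.666 at sec-12 to 1.63 at rab-14, with a median of 1.01, beside a median of 1.04 over all reproducible peaks. In 15 of the 18 (83.3%) the peak was among the 4963 best of both replicates, against 83.6% of all reproducible peaks, so member peaks repeated about as often as others. The exceptions were rab-8, sec-12 and sec-23. The signal in the pooled list was close to the sum of the replicate signals, with a median quotient of 1.00 at member peaks.

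**Figure D2:**
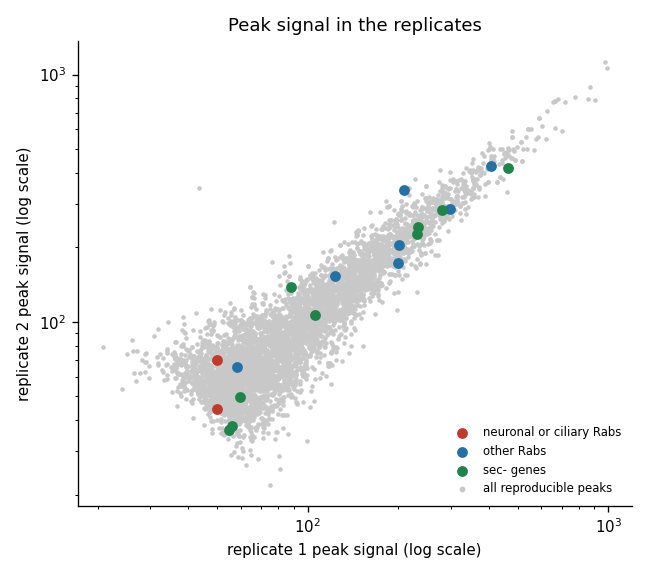
Signal of each reproducible peak in replicate 1 (x axis) and replicate 2 (y axis), both on log scales, for neuronal or ciliary Rabs, other Rabs, sec- genes and all reproducible peaks (grey). Member peaks run from low to high within the grey cloud, and rab-14 lies at 208.8 in replicate 1 and 340.0 in replicate 2.

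Most member summits were shared with a neighbouring gene. For 13 of the 18 (72.2%), the summit also lay in the window of another coding gene, beside 44.7% of bound coding genes. This held for 8 of 9 bound rab- genes and 5 of 9 bound sec- genes. Partners included ribosomal protein genes at rab-11.1 (rpl-7, 315 bp from the summit) and sec-61.A (rps-18, 544 bp), and trap-3, for a subunit of the translocon-associated complex, which faces sec-61.B at 297 bp. The rab-18 summit lay also in the windows of kbp-4 and par-2, and that of rab-7 in those of W03C9.5, the next gene upstream on the same strand, and mex-1. In 7 of the 18 the nearest 5′ end belonged to another gene (rab-1, rab-7, rab-8, rab-11.1, sec-15, sec-23 and sec-61.B). At the other shared summits the member's 5′ end was the nearest, which does not settle the assignment. For none of the 13 can the peak be given to the member rather than to its neighbour. At sec-15 the summit was 315 bp from the member and 14 bp inside C28G1.2. The remaining 5, rab-28, sec-3, sec-12, sec-16A.2 and sec-24.1, had a summit in no other window, with signals of 121.7, 216.9, 97.9, 116.1 and 241.7.

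**Figure D3:**
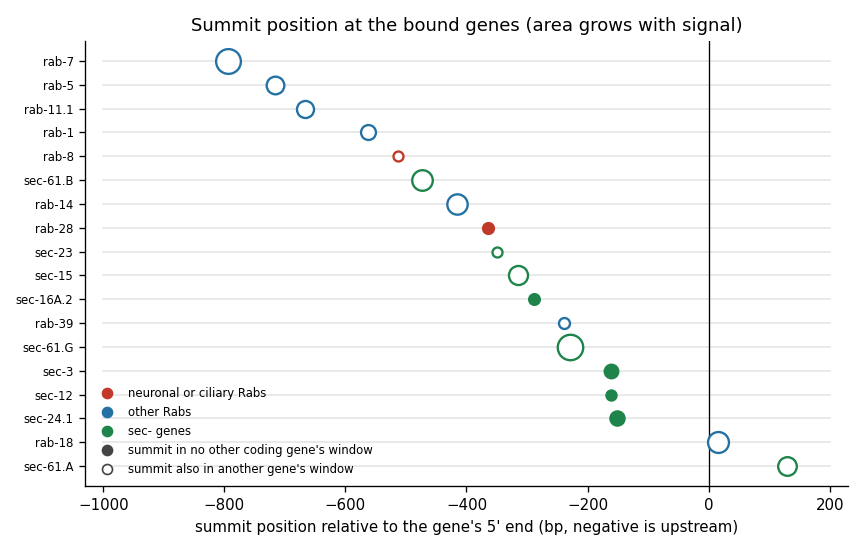
Position of the summit relative to the 5′ end (bp, negative is upstream) for each of the 18 bound members, with area growing with signal and open circles for summits that also lie in another coding gene's window. Of the 18, 16 lie upstream, beside 2611 of the 2752 bound coding genes, and the 5 filled circles all lie within 364 bp of the 5′ end.

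Summits were upstream of the 5′ end at 16 of the 18 genes, beside 2611 of the 2752 bound coding genes. The upstream summits lay at a median of 357 bp, beside 246 bp over bound coding genes. They were further away at rab- genes (median 537.5 bp) than at sec- genes (259 bp). Of the rab- summits more than 500 bp upstream, those of rab-1, rab-7, rab-8 and rab-11.1 lay nearer another gene's 5′ end. That of rab-5 lay nearer its own. Of the 18 summits, 15 lay between coding genes (83.3%), beside 87.7% of the 2119 highest peaks of bound coding genes. The other 3 lay in an exon outside coding sequence, with none in coding sequence or an intron. The arrangement of the upstream neighbour went with binding among members and among all genes. Of 21 members whose upstream neighbour is divergent, 13 were bound, beside 18.8% of coding genes so arranged. Of 18 members with an upstream neighbour on the same strand, 5 were bound, beside 9.49% of such genes. The part of this arrangement in the counts was not tested.

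Of the 18 member peaks, 8 had GACGC, read on both strands, no more than 100 bp from the summit (44.4%), beside 30.7% of all reproducible peaks. These were rab-7, rab-11.1, rab-14, rab-18, sec-3, sec-24.1, sec-61.B and sec-61.G. Signal differs between the sets: of the 9 member peaks among the 1000 highest, 6 had GACGC beside 43.5% of all such peaks, and of the other 9 it was 2 beside 27.5%. GAGAGA, searched the same way, was found at 7 of 18 (38.9%) beside 34.6% of all peaks, and it overlaps GACGC at sec-61.G. The forkhead core TAAACA was found at 1 member peak, sec-12, beside 13.4% of all peaks. The X-box was found at 1, rab-28, beside 3.49%. In the whole windows of 1000 bp upstream to 200 bp downstream, the X-box occurred at 5 of 39 members (rab-7, rab-21, rab-28, sec-22 and sec-31), beside 10.2% of coding genes, and GACGC at 21 of 39, beside 52.5%. Median GC content within 100 bp of the summit was 44.8% at member peaks and 40.8% at all reproducible peaks. A match is a description of letters and not a site of binding.

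Other genes of the pathway were bound at 29 of 76 (38.2%, exact 95% interval 27.2 to 50.02%), beside 13.8% of all coding genes. Among coding genes with a gene-class symbol the share was 17.1%. The list held 82 symbols, of which 6 were not found in the annotation under the symbol searched. Rabs under other names were bound at 2 of 3: unc-108, which encodes RAB-2, had a signal of 769.5 (rank 86) with the summit 36 bp upstream, and aex-6, which encodes RAB-27, had 157.6 (rank 2629), while glo-1 was not bound. Rab regulators and effectors were bound at 7 of 19, led by the endosomal regulator rabx-5 (741.9), the RAB-2 effector rund-1 of neuronal dense-core vesicles (726.8) and ccz-1 (330.4), whose product takes part in the activation of RAB-7. Genes of the translocon and signal peptide processing were bound at 6 of 12, led by trap-3 (561.5, the summit it shares with sec-61.B), trap-2 (486.0) and the signal peptidase subunit gene spcs-2 (374.4). COPI coat and Arf genes were bound at 4 of 9, led by copz-1 (343.4), copd-1 (164.5) and copg-1 (123.9), and COPII and ER exit genes at 1 of 4, the GTPase gene sar-1 (238.3). The exocyst genes exoc-7 (313.9) and exoc-8 (137.1) and the GTPase gene ral-1 (161.8) were bound, 3 of 3, beside 2 of the 6 exocyst genes named sec-. Membrane fusion genes were bound at 5 of 16, led by the Golgi SNARE gene syx-5 (438.7), nsf-1 (344.1), for the ATPase that takes SNARE complexes apart, and the SNARE gene nbet-1 (173.7), and TRAPP tether genes at 1 of 10, trpp-5 (166.4).

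The count of bound genes depends on the rule for binding. With windows from 2000 bp upstream to 500 bp downstream, 23 members were bound, beside 18.8% of coding genes, and with windows from 500 bp upstream to 200 bp downstream 13 were, beside 10.9%. The shorter window lost rab-1, rab-5, rab-7, rab-8 and rab-11.1, so it took 5 of 9 rab- genes and no sec- gene. Each summit was also given only to the nearest 5′ end, with no limit on distance, so summits beyond the window could count. By this rule 15 members were bound, fewer than by the window, beside 18.1% of coding genes, more than by the window. Of the 15, 4 (rab-3, rab-19, rab-21 and rab-37) were not bound by the window itself. With all coding transcript 5′ ends 20 members were bound, beside 15% of coding genes, rab-3 and rab-19 being the additions, and with any overlap of peak and window 19 were, beside 15.1%. With the highest 2481 pooled peaks 12 members were bound, beside 8.08%, and with 9926 peaks 22, beside 21.3%. The best peaks of replicate 1 alone bound 18, beside 13.5%, and those of replicate 2 alone 16, beside 13.8%.

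**Figure D4:**
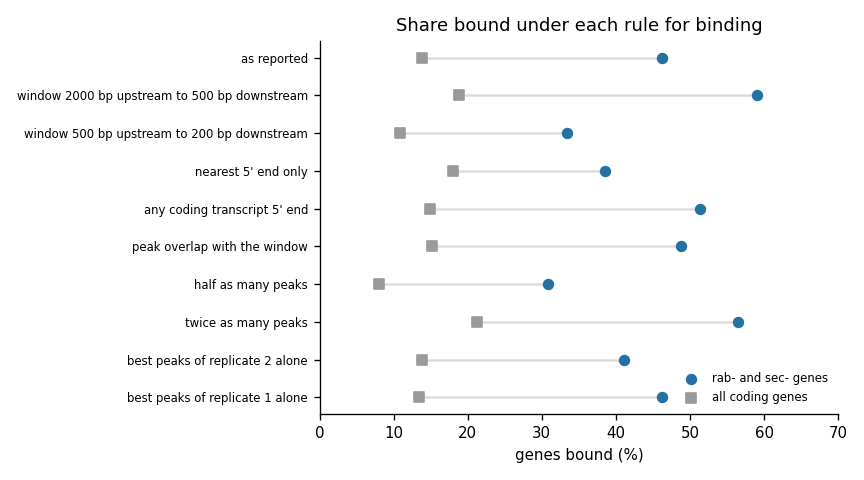
Share of genes bound (%) among the 39 rab- and sec- genes (circles) and all coding genes (squares) under each rule for binding. The circles lie between 30.8 and 59.0% and the squares between 8.08 and 21.3%.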

How the data were processed

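FKH-8 binding was measured by ChIP-seq in 2 biological replicates. Of 8 deposited peak lists, the 4 on ce11 were used: 1 for each replicate and 1 for the whole series, named by the authors as input for IDR, and the reproducible list. The list for the whole series is called pooled here because its signals are close to the sum of the replicates' signals. Control samples were not analysed here. Which aligner and caller were used, and at what IDR cutoff, is not given in the sources used here. The deposited signal of each peak, whose scaling is not stated, was ranked within each list, and ratios between replicates are of signals on each list's own scale. No list's peaks ended beyond the reference chromosomes.

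Gene 5′ ends came from Ensembl release 115 (WBcel235) and bases from RefSeq. Replicate values are of the highest peak in each replicate's list overlapping a member's peak by 1 bp or more. Motifs were searched on both strands in Python 3.11.15. Upstream neighbours are the nearest coding gene bodies on the 5′ side. Assignment and motif search were tested on simulated data. The alternatives were other windows, ways of assigning a summit, numbers of peaks, motif distances and each replicate alone. Intervals are exact Clopper-Pearson. No test was run, since there is 1 group. All members were named, and the 3 highest bound genes of each pathway sublist. Members and lists were chosen with earlier results of these data known. Groups by role, the split by upstream neighbour and the set of rab- genes alone were made after the values were seen.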

Additional observations from a re-analysis of the deposited data

How the results depend on the processing

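Under alternative settings 88 values stayed close to the reported one (counts within 1.5 times) and 20 moved. The count of bound members stayed within that range in all planned settings, between 12 and 23. It was 13 among genes with a divergent upstream neighbour and 5 among those with a neighbour on the same strand, a split added after seeing the data. The count of bound rab- genes was 4 with the window of 500 bp. Neuronal or ciliary Rabs bound numbered 1 with that window, 0 with 2481 peaks, and 1 to 2 over the replicates alone. Members with a summit assigned to no other gene were 9 with that window, 15 by the nearest 5′ end and 2 with 2481 peaks. The 15 are all the members bound by the nearest 5′ end. Bound coding genes numbered 1613 with 2481 peaks and 4251 with 9926. Bound general members numbered 7 with rab- genes only, also added after seeing the data. The median signal of bound members was 161.9 and 189.4 on the replicates' own scales, which differ from the pooled one. TAAACA was found at 0 member peaks within 50 bp, 4 within 200 bp, 0 with 2481 peaks, 2 with 9926 and 0 in either replicate alone, and the X-box at 0 with 2481 peaks. Fewer genes or peaks enter by construction in the smaller windows and lists. The rule of the nearest 5′ end, also by construction, leaves no summit shared unless distances tie. The causes of the other changes were not tested. Read depth is unknown, so no counting error can be given for a signal, and the lowest bound genes, rab-8, sec-12 and sec-23, rest on the authors' threshold. No paired analysis was possible because there is 1 group.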
